A study of Nicotiana tabacum with 9 samples.

Results

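Of the transcription factor genes of tobacco, 1 of the NAC family and 4 of the WRKY family were followed through a search for the DNA bound by AmMIXTA and NtZFP8. They are NAC domain-containing protein 76-like (LOC107831613), 2 genes described as probable WRKY transcription factor 4 (LOC107784946 and LOC107820331), probable WRKY transcription factor 33 (LOC107811911) and probable WRKY transcription factor 40 (LOC107801001). They were picked by identifier, with their peak scores known, from the 1884 genes that stand in either of the authors' gene tables, and all 5 were found there. Those tables hold 11 genes whose description names NAC or WRKY, so 6 others are given for comparison. Because the scores chose the genes, they are reported as a description and none of them was tested.

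The assay was DNA affinity purification sequencing (DAP-seq), in which fragments of genomic DNA are mixed with a transcription factor that is anchored to beads by its tag, and the fragments that remain after washing are sequenced. The 9 samples formed 3 groups of 3 replicates, HALO-tagged AmMIXTA, HALO-tagged NtZFP8 and, as the negative control, a HALO-tagged nuclear GFP. AmMIXTA is an R2R3-MYB protein of snapdragon and NtZFP8 a zinc finger protein of tobacco. DNA in every group came from leaf primordia of wild-type Nicotiana tabacum, cultivar Petit Havana SR1. Purified DNA was used with proteins expressed in a wheat germ extract, so a peak reports binding to naked DNA and gives no measure of binding or expression in the leaf. The question of the series was which genes are direct targets of the 2 factors in early glandular trichome development.

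NAC and WRKY proteins form large families of plant transcription factors named for their DNA-binding domains. In Arabidopsis, NAC76 is one of the vascular-related NAC-domain proteins, which switch on secondary wall formation and programmed cell death in water-conducting xylem vessels. WRKY proteins bind the W-box, a short element common in promoters of defence genes, and WRKY genes themselves often carry it. WRKY33 of Arabidopsis acts in resistance to necrotrophic fungi and in camalexin synthesis, WRKY4 acts in the responses to necrotrophic and biotrophic pathogens, and WRKY40 acts with its relatives in defence and in abscisic acid signalling.

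Each value below is the authors' peak shape score for 1 peak against GFP, which has no unit, with the authors' p-value for that peak. There is 1 value per protein and gene and none per replicate. The spread between replicates therefore has no value here, nothing could be tested over samples, and the read depth behind a peak is unknown. The authors' criteria were a score above 2 and a p-value under 0.05, and the lists reach down to a score of 1.64. Every peak of the 11 NAC and WRKY genes met the p-value criterion, with the authors' p = 0.04 where the score was under 2. Among these peaks a higher score never had a higher p-value, so the p-value is not read as evidence apart from the score. Genes were counted as past the criteria by the score alone. Scores rank peaks within the list of 1 protein, and where values of both proteins are printed together the difference was not tested. The GFP libraries are the control of both lists. Positions are those of the deposited lists on the scaffolds of the tobacco genome that the authors used. Each peak is given at the gene to which the authors assigned it. The sources used here do not state the rule for that assignment. Whether a peak lies in the promoter, in the gene or farther away was not examined. The sources used here do not say how reads that match several gene copies were placed. Tobacco is an allotetraploid with many near-identical gene pairs, and peaks at such copies would be uncertain in this respect. Whether the 2 genes described as WRKY4 are such a pair was not tested.

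Of the 5 genes, 4 passed the criteria for AmMIXTA and 4 for NtZFP8, and 3 passed for both. Over all genes of the tables, 71.9% of the AmMIXTA table and 77.4% of the NtZFP8 table passed, and 31.4% of the genes in either table passed for both. As the genes were chosen by these scores, nothing is read from their counts. NAC76-like had the highest score of the 5 for either protein. Each gene had 1 peak per protein at most, which made 9 peaks in all.

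**Figure D1:**
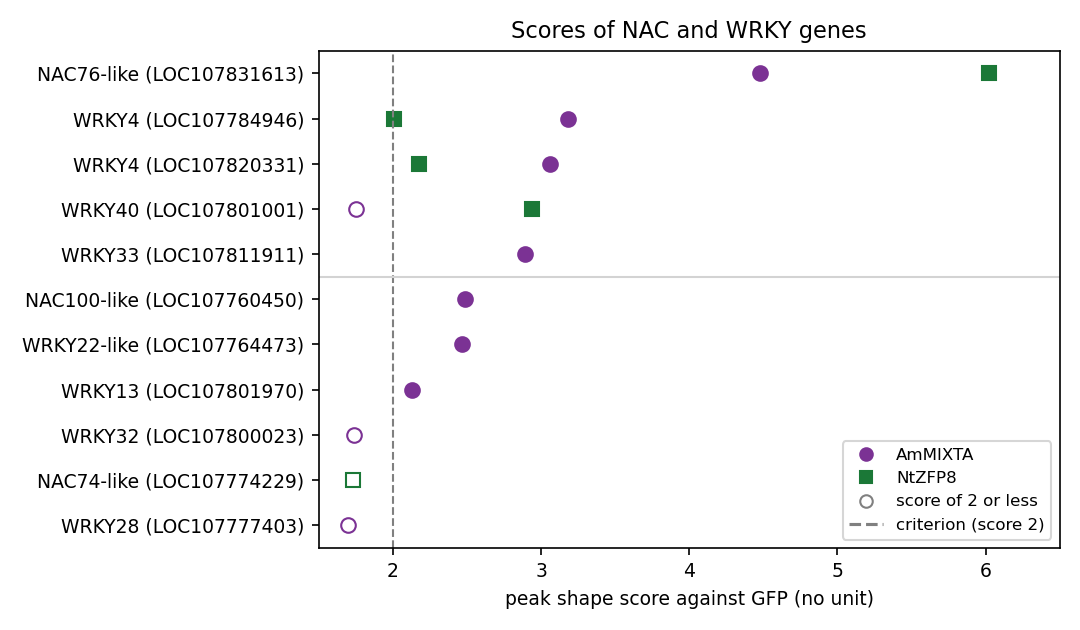
Peak shape score (x axis, no unit) of the 11 genes described as NAC or WRKY (y axis), with circles for AmMIXTA, squares for NtZFP8, open symbols for a score of 2 or less and a dashed line at the criterion of 2. The 5 genes above the grey line are those followed here. NAC76-like stands farthest to the right with 4.48 and 6.02, and each of the 6 genes below the line has a symbol for 1 protein only.

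NAC76-like had an AmMIXTA peak at 67975 to 68474 of NW_015861192.1 with a score of 4.48 (the authors' p = 3.79e-06). Its NtZFP8 peak, at 68159 to 68454, scored 6.02 (the authors' p = 8.63e-10). The NtZFP8 peak lay wholly inside the AmMIXTA peak, and the 2 centres were 20 bp apart. NAC76-like thus stood well inside the upper part of both tables: 81.4% of the 1662 genes of the AmMIXTA table and 82.9% of the 974 genes of the NtZFP8 table had a lower score. The median gene had 2.55 for AmMIXTA (interquartile range 1.94 to 3.81) and 2.90 for NtZFP8 (2.04 to 4.62).

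The 2 WRKY4 genes had nearly the same scores as each other. At LOC107784946, which RefSeq also lists under the name WRKY2, the AmMIXTA peak (21503 to 22002 of NW_015798749.1) scored 3.18 (the authors' p = 0.000731). The NtZFP8 peak there (21629 to 21963) scored 2.01 (the authors' p = 0.02), just inside the criterion. At LOC107820331 the AmMIXTA peak (8874 to 9349 of NW_015824791.1) scored 3.06 (the authors' p = 0.0011) and the NtZFP8 peak (9202 to 9472) scored 2.18 (the authors' p = 0.01). For AmMIXTA the WRKY4 genes stood above the middle of the table, with 66.2% and 64.0% of its genes below them. For NtZFP8 they stood in the lower part of the table, with 22.6% and 29.9% of genes below.

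The arrangement of the peaks was not the same at the WRKY4 genes. At LOC107784946 the NtZFP8 peak lay wholly within the AmMIXTA peak and the centres were 3 bp apart. At LOC107820331 the peaks overlapped by 148 bp, which is 31.1% of the AmMIXTA peak and 54.6% of the NtZFP8 peak, and the centres were 272 bp apart. The AmMIXTA peak at LOC107820331 was also turned around in shape: its centre stood 173 bp after its start and 302 bp before its end, whereas the centre at LOC107784946 stood 325 bp after the start and 174 bp before the end. The other 3 AmMIXTA peaks, at NAC76-like, WRKY33 and WRKY40, had their longer side before the centre as well, as did 80.4% of all 29197 listed AmMIXTA peaks.

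WRKY40 was the one gene of the 5 past the criteria for NtZFP8 and not for AmMIXTA. Its NtZFP8 peak (67012 to 67315 of NW_015933463.1) scored 2.94 (the authors' p = 0.00166), with 51.3% of the genes of that table below it. An AmMIXTA peak was listed at the same place (66943 to 67272), but with a score of 1.75 (the authors' p = 0.04) it stayed under the criterion and above only 10.7% of the AmMIXTA genes. The 2 peaks overlapped by 261 bp and their centres were 3 bp apart. Since the lists end at 1.64, the AmMIXTA score was close to the lowest that could be listed.

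WRKY33 was found for AmMIXTA alone. Its peak (22088 to 22522 of NW_015953068.1) scored 2.89 (the authors' p = 0.00193), and 59.1% of the AmMIXTA genes scored lower. No NtZFP8 peak was listed anywhere on that scaffold, at any score down to the end of the list. This was a common state: of the 1195 AmMIXTA genes past the criteria, 532 (44.5%) were absent from the NtZFP8 table and 449 (37.6%) lay on a scaffold without a listed NtZFP8 peak. A peak under the lowest listed score would not be seen, so weaker NtZFP8 binding at WRKY33 was not detectable in these lists.

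**Figure D2:**
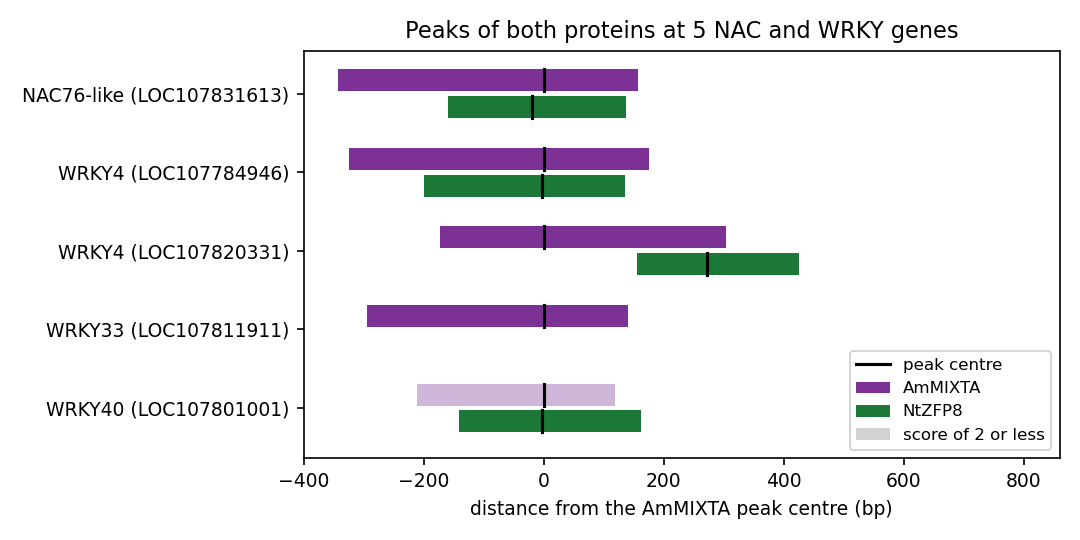
Extent of the peaks of both proteins at the 5 genes, as distance in bp from the centre of the AmMIXTA peak (x axis), with pale bars for a score of 2 or less and black ticks for peak centres. The ticks of both proteins nearly coincide at NAC76-like, at WRKY4 LOC107784946 and at WRKY40, lie 272 bp apart at WRKY4 LOC107820331, and WRKY33 has an AmMIXTA bar alone.

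Peaks of both proteins overlapped by at least 1 bp at all 4 genes that stood in both tables, and at the 3 past both criteria. The background was high, as the highest peaks overlapped at 87.4% of the 752 genes in both tables and at 89.0% of the 592 genes past both criteria. Centres were a median of 16 bp apart over the 752 genes (interquartile range 8 to 38.25), and 111 genes (14.8%) had them more than 200 bp apart, on the side where WRKY4 LOC107820331 falls. The NtZFP8 peak lay wholly inside the AmMIXTA peak at 245 of the 752 genes (32.6%), as it did at NAC76-like and WRKY4 LOC107784946. Peak edges partly followed fixed distances: in the AmMIXTA list 5603 peaks (19.2%) ended exactly 174 bp after their centre, and in the NtZFP8 list 3393 (16.2%) ended exactly 138 bp after it, as at WRKY4 LOC107784946 for both proteins. Overlap in bp is therefore a coarser measure than the distance between centres.

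**Figure D3:**
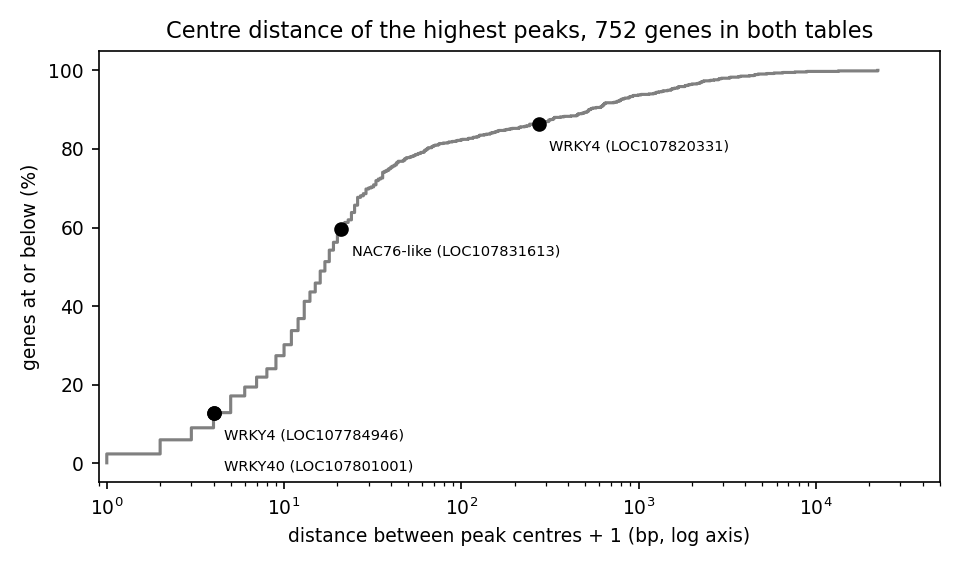
Cumulative share of the 752 genes in both tables (y axis, percent) by the distance between the centres of their highest AmMIXTA and NtZFP8 peaks (x axis, bp plus 1, log axis). WRKY4 LOC107784946 and WRKY40 share a point at 3 bp near the foot of the curve, NAC76-like lies at 20 bp on its steep part, and WRKY4 LOC107820331 lies at 272 bp on the upper shoulder.

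The peaks of the 5 genes stood alone. Within 5000 bp of the highest peak of each gene there were 0 further listed peaks of either protein, and this was also so within 20000 bp. Such isolation was usual, since 88.1% of genes in the AmMIXTA table and 81.2% in the NtZFP8 table had no second peak of the same protein within 5000 bp of their highest peak. For 20000 bp the share over all genes was not counted. That window is also cut short at WRKY4 LOC107820331, whose AmMIXTA peak starts at 8874 of its scaffold. On the 5 scaffolds there was 1 more listed peak, an AmMIXTA peak with a score of 1.69 at the start of the scaffold of WRKY40 (1 to 330), 66954 bp from the WRKY40 peak and assigned to no gene. No other gene of either table had a peak on these scaffolds, as was the case for 86.8% of all genes in either table. In the RefSeq annotation of another tobacco assembly, ASM71507v2, the 4 nearest protein-coding genes of each of the 5 made 20 neighbours, of which 0 stood in either table. Over the 1433 genes of the tables with an entry there, 3.98% of such neighbours did.

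**Figure D4:**
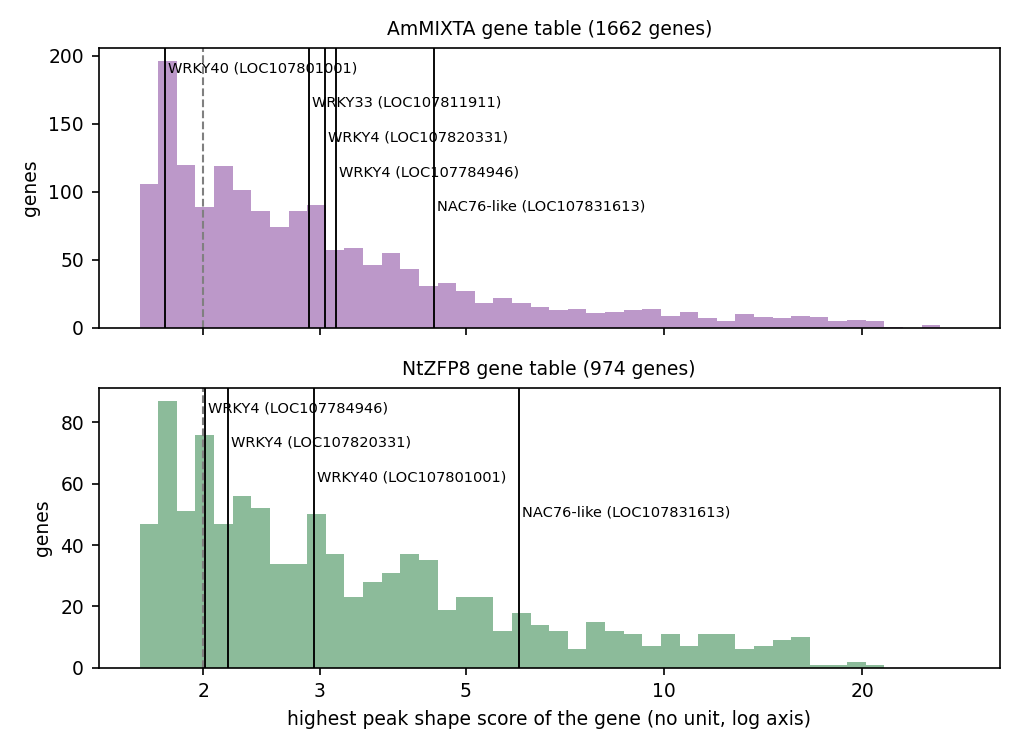
Number of genes (y axis) by highest peak shape score (x axis, log axis) in the AmMIXTA table (1662 genes, top) and the NtZFP8 table (974 genes, bottom), with black lines for the NAC and WRKY genes followed here and a dashed line at 2. NAC76-like lies in the upper part of both but short of the far tail, and the WRKY lines stand close together around 3 for AmMIXTA, except WRKY40 at 1.75.

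The other 6 NAC and WRKY genes scored under the median gene of their table (2.55 for AmMIXTA, 2.90 for NtZFP8). Each was listed for 1 protein only, as were 60.1% of the 1884 genes in either table. NAC100-like (LOC107760450) had 2.49 for AmMIXTA and WRKY22-like (LOC107764473), whose Arabidopsis namesake acts in early immune signalling, had 2.47. Both stood near the middle of the AmMIXTA table, with 47.8% and 47.2% of its genes below them. WRKY13 (LOC107801970), known in Arabidopsis for lignin deposition in stems, had 2.13. These 3 passed the criteria for AmMIXTA. Under the criterion were WRKY32 (LOC107800023) at 1.74 and WRKY28 (LOC107777403) at 1.70 for AmMIXTA, and NAC74-like (LOC107774229) at 1.73 for NtZFP8. None of the 6 had a listed peak of the other protein on its scaffold, which was also so for 81.5% of the 1132 genes listed for 1 protein only. With the 5 genes above, 7 of the 10 NAC and WRKY genes in the AmMIXTA table passed (70.0%, against 71.9% of all its genes), with a median score of 2.48 against 2.55 over all genes. Of the 5 in the NtZFP8 table, 4 passed (80.0%, against 77.4%), with a median of 2.18 against 2.90. These shares are near the background.

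The genes whose pair of scores was most like that of each gene past both criteria were looked up among the 520 other described genes in both tables, by the distance between the pairs on the log2 scale over the 2 lists. Closest to NAC76-like were plastidic glucose transporter 1 (LOC107803044, 4.45 for AmMIXTA and 6.14 for NtZFP8, distance 0.03), then PLANT CADMIUM RESISTANCE 8-like (LOC107770242) and plastidic glucose transporter 2 (LOC107770243). The last 2 share 1 peak per protein, with 4.76 and 5.91 (distance 0.09). Closest to WRKY4 LOC107784946 were NAP1-related protein 2-like (LOC107824938, 3.22 and 2.02, distance 0.02), BTB/POZ and TAZ domain-containing protein 3-like (LOC107785856, 3.12 and 2.06, distance 0.04) and a cytochrome b561 and DOMON domain protein (LOC107803293, 3.30 and 2.08, distance 0.07). Closest to WRKY4 LOC107820331 were bHLH112-like (LOC107831217, 3.05 and 2.17, distance 0.01), TONNEAU 1b-like (LOC107826948, 3.02 and 2.18, distance 0.02) and a universal stress protein A-like gene (LOC107825781, 3.00 and 2.21, distance 0.03). At TONNEAU 1b-like, of a family that organises cortical microtubules in Arabidopsis, the highest peaks did not overlap and the centres were 1257 bp apart.

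Genes of the pathways in which NAC76 and WRKY proteins are known to act were counted by words in their descriptions. The secondary wall list held 11 genes, and 7 of the 9 in the AmMIXTA table passed the criteria (77.8%, against 71.9% of all genes), with a median score of 2.78. Of the 6 in the NtZFP8 table, 2 passed (33.3%, against 77.4%), with a median of 1.87. Of the 11, 2 passed for both, beside 31.4% of the 1884 genes in either table. Xylem cysteine proteinase 1-like (LOC107804325), a protease of dying vessel cells, had 17.02 for AmMIXTA and 10.35 for NtZFP8, with centres 7 bp apart, and so scored higher than NAC76-like for both proteins. Cinnamoyl-CoA reductase 1-like (LOC107808266), of monolignol synthesis, had 4.96 for AmMIXTA and 1.72 for NtZFP8. Laccase-11-like (LOC107792419), of a family that polymerises lignin, had 3.91 and 1.93. At both genes the NtZFP8 score missed the criterion although the peaks overlapped, with centres 4 bp and 25 bp apart. The second gene past both criteria, cellulose synthase A subunit 3 (LOC107809423), had 2.24 and 2.50, and its Arabidopsis namesake serves the primary rather than the secondary wall. Some words matched genes outside secondary wall formation, such as a glutathione peroxidase homolog (LOC107813066, 1.98 for AmMIXTA), named after its value was seen.

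The defence list of the WRKY pathway held 25 genes. Of these, 16 of the 20 in the AmMIXTA table passed (80.0%, against 71.9%), with a median score of 2.48, and 9 of the 14 in the NtZFP8 table passed (64.3%, against 77.4%), with a median of 2.81. Of the 25, 8 passed for both, near the 31.4% of the 1884 genes in either table that did. The highest was calmodulin-binding transcription activator 4-like (LOC107810996), of a family that ties calcium signals to transcription, with 13.04 and 14.46 and centres 17 bp apart. It entered the list by the word calmodulin, and its description does not name defence. A second gene of the same description (LOC107761409), named after its values were seen, had only 2.57 and 2.72. The resistance gene RPP13-like protein 1 (LOC107759949) had 5.83 and 4.38. The neighbouring resistance genes RGA3 (LOC107803914) and RGA1 (LOC107804150) share their peaks, with 2.38 and 5.25, and count as 2 genes all the same. There the AmMIXTA peak and the NtZFP8 peak did not overlap, and their centres were 329 bp apart. Another gene described as RGA3 (LOC107786227), also named after its value was seen, was listed for NtZFP8 alone, at 1.77. The pathogenesis-related gene STH-2-like (LOC107808479) had 3.97 and 3.78, with centres 14 bp apart. Another gene of both tables has the same scores and centre distance, so the peaks of both proteins are taken as shared. Some genes nearer to WRKY proteins were chosen after all their values were seen. MAP kinase kinase 9-like (LOC107790425) had 1.71 and 2.48, with centres 227 bp apart, and the salicylic acid regulator NPR1-like (LOC107831756) had 2.86 for AmMIXTA. Of the VQ motif proteins, a family that binds WRKY proteins and is also named after its values were seen, 4-like (LOC107824754) had 2.26 for AmMIXTA and 22-like (LOC107771683) had 1.66, under the criterion, for NtZFP8. The MAP kinase kinase kinase 2-like genes, named in the same way, had 2.68 (LOC107822275) and 1.81 (LOC107789097), the latter under the criterion, for AmMIXTA.

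**Figure D5:**
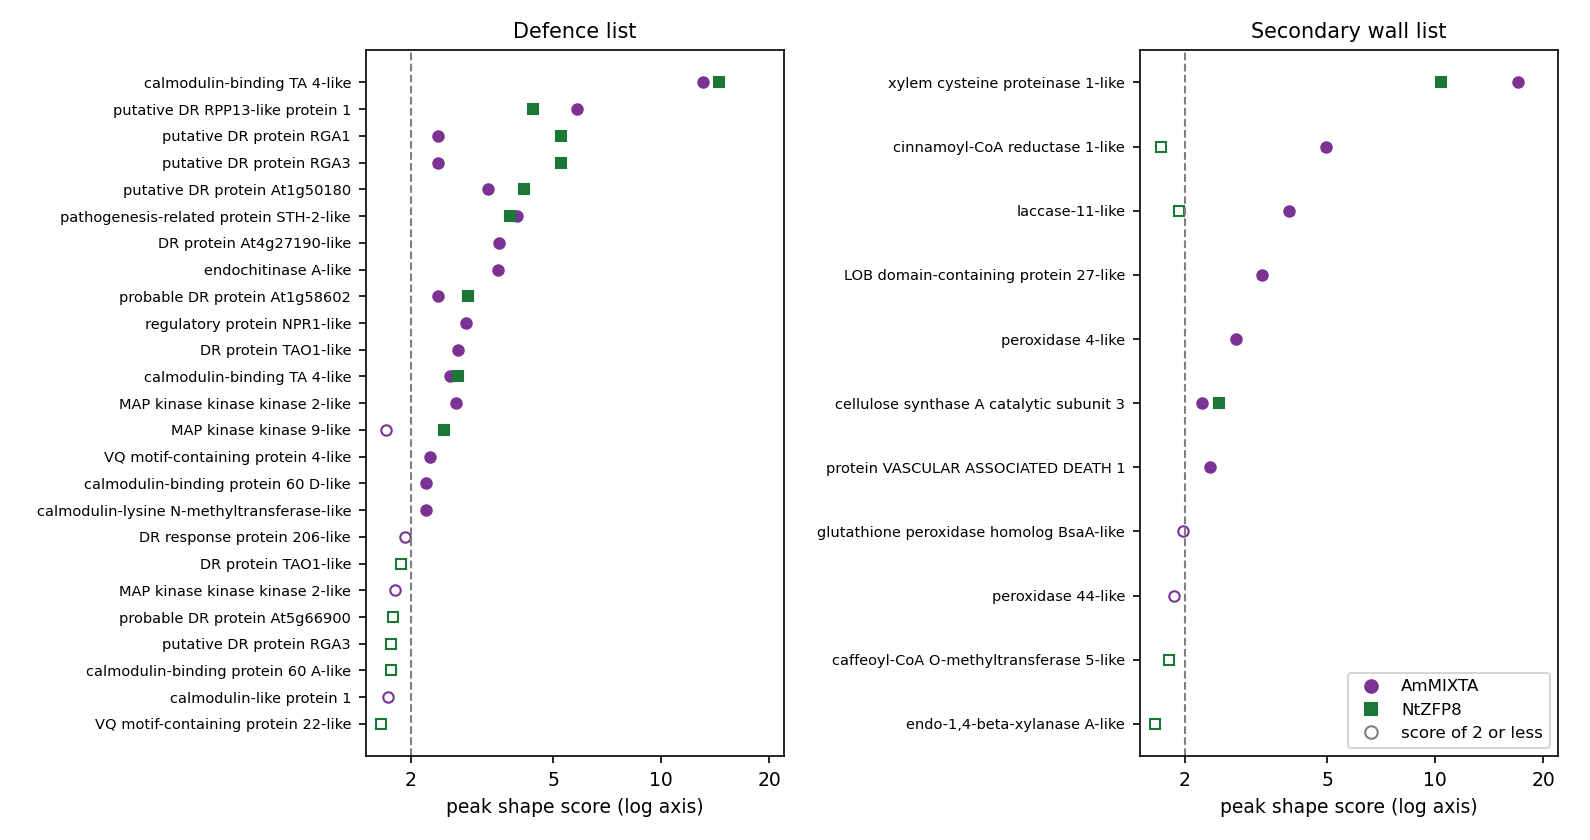
Peak shape score (x axis, log axis) of each gene of the defence list (left, 25 genes) and the secondary wall list (right, 11 genes), with circles for AmMIXTA, squares for NtZFP8, open symbols for a score of 2 or less and a dashed line at 2 (DR, disease resistance; TA, transcription activator). The calmodulin-binding activator LOC107810996 leads the left panel near 13 and 14, and xylem cysteine proteinase 1-like leads the right panel at 17.02 and 10.35.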

How the data were processed

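DNA of leaf primordia was sonicated for 20 min, and 1000 ng was kept with bead-bound protein for 1 h at 25 °C, per the labels' protocols. Reads were mapped to the tobacco genome of Sierro and colleagues and hits called against GFP, per the series' design text. The sources used here name neither aligner nor peak caller, nor how replicates were pooled or merged. Nor do they give the rule by which peaks were assigned to genes. The deposited peak shape score and the deposited p-value are the authors' own values, 1 per peak. NtZFP8 scores were deposited with 2 decimals and decimal commas, and NtZFP8 p-values were read from the gene table. Each gene table line was matched to the peak list by scaffold and centre, and all lines matched.

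A gene's value is its highest score. A blank description took that of the gene's other lines. Regions running past a scaffold's start began at 1. Peaks overlapped from 1 bp. Overlap code was tested on simulated intervals. Python 3.11.15 and numpy 2.4.6 were used. The genes, word lists and thresholds were chosen with earlier results of these data known. Named genes were the 5 genes, all others described as NAC or WRKY, genes with a peak within 20000 bp, the 3 most alike per gene past both criteria, and the highest 3 per protein of each word list. A few genes of the word lists were named outside this rule, after their values were seen, and are marked so in the text. Of the 11 NAC and WRKY genes, 10 have an entry in ASM71507v2, used for names and gene order only. Promoter, protein and peak sequences and motifs were not analysed here. A sheet that stands in both workbooks without a protein label was not used.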

Additional observations from a re-analysis of the deposited data

How the results depend on the processing

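No paired analysis was possible because the lists hold no value per replicate, and for the same reason no replicate could be left out. With a score above 3 in place of 2, 1 of the 5 genes passed for NtZFP8 in place of 4, and 1 passed for both proteins in place of 3, namely NAC76-like. Under the same threshold 3 NAC and WRKY genes passed for AmMIXTA in place of 7, and 1 for NtZFP8 in place of 4. The defence list then held 6 AmMIXTA genes in place of 16, and the secondary wall list 4 in place of 7 for AmMIXTA and 1 in place of 2 for NtZFP8. The median gene of each table also lies under 3 (2.55 for AmMIXTA, 2.90 for NtZFP8). Most genes of each table thus fail at 3. Whether the falls seen here are larger than those over all genes was not tested. The share of all genes past 3 was not counted. With every listed score counted, the NtZFP8 genes rose from 9 to 14 in the defence list and from 2 to 6 in the secondary wall list. Every gene of a table passes under that setting, so nothing is read from this rise. The settings for these word lists were chosen after seeing the data. The other 17 recomputed counts stayed within 1.5 times their first value, but most of them say little about robustness. They counted every listed score, found 0 neighbouring peaks in each window, or used stricter names that kept the same number of genes. Among the 17, a score above 3 left 3 of the 5 genes for AmMIXTA in place of 4. It left 6 defence genes for NtZFP8 in place of 9. Asking for an overlap of 50% of each peak left 2 of the 3 overlapping genes, without WRKY4 LOC107820331, and counting every listed score gave 4, with WRKY40.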
